A study of Sus scrofa with 80 samples.

Results

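The enzymes that oxidize, reduce and conjugate small molecules were followed across endocrine organs and backfat of pigs with microarrays. The members were the genes whose symbol starts with CYP (cytochromes P450), AKR (aldo-keto reductases), ALDH (aldehyde dehydrogenases), GST (glutathione transferases), SULT (sulfotransferases), UGT (glucuronosyltransferases), FMO (flavin-containing monooxygenases) or ADH (alcohol dehydrogenases), with a digit next except for GST. Of 57 such genes, CYP17A1, CYP11A1, ALDH1A1, AKR1CL1 and SULT2A1 were left out by name, which gave 52 members out of 6765 gene symbols. Each member was represented by its brightest probeset, the set of probes that the array assigns to a transcript. A total of 16 pigs contributed 5 tissues each, with 1 array per tissue and animal, so that 80 arrays were available. The tissues were hypothalamus, adenohypophysis, thyroid gland, gonad and backfat, and the gonads were kept apart as 9 testes and 7 ovaries. Of the 4 Duroc, 4 Large White and 4 Iberian pigs 2 of each breed were males, and of the 4 Youli pigs 3 were males. The Duroc and Youli were maternal lines, Youli coming from a cross of Landrace with a line of mixed Chinese and European origin, the Large White was a lean sire line and the Iberian a slow-growing fat breed. All animals were young, with a mean age of 83 days in Duroc, 87 days in Large White, 80 days in Youli and 89 days in Iberian pigs, and had fasted for 24 h. Mean weight was 23.1 kg in Duroc, 27.2 kg in Large White, 18.9 kg in Youli and 17.4 kg in Iberian pigs, so that breed, weight and age cannot be told apart.

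Cytochromes P450 and flavin-containing monooxygenases insert oxygen into steroids, fatty acids, vitamins, drugs and pollutants, and aldo-keto reductases, alcohol dehydrogenases and aldehyde dehydrogenases process the alcohols and aldehydes that follow. Glutathione transferases, sulfotransferases and glucuronosyltransferases then attach a water-soluble group. The liver, which was not sampled here, is the organ best known for these reactions, whereas in endocrine organs many of the same families act on steroids, oxysterols, retinoids, neurotransmitter aldehydes and lipid peroxides.

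Values are on the log2 scale, and values near log2 2 to 3 are at the background of the normalization. A difference against such a value depends on where this background lies. Array medians lay between 4.67 and 5.04, with backfat at the low end and ovary at the high end. Most defining markers were high in the organ of the label, such as thyroglobulin in thyroid, growth hormone in adenohypophysis and adiponectin in backfat. Exceptions included the ovarian factor FOXL2, at background everywhere, leptin (LEP), with a backfat median of 2.72, and 3 hypothalamic neuropeptides, since POMC had a hypothalamus median of 2.87 and AVP and OXT were at 1.84 and 1.54 in their lowest hypothalami. The myelin gene MBP averaged 8.53 in hypothalamus, near the 8.45 of adenohypophysis and the 8.29 of thyroid. Titles were used to assign the thyroid arrays, 11 of 16 of which carry a breed or sex field that contradicts the title. Some arrays stood apart from others of their organ. The backfat of the Youli male YLM19 (codes join breed, sex and animal number) had a mean of 14.63 over 5 measured of 6 skeletal muscle markers, against a median of 3.11 over all backfat arrays. The ovary of the Iberian female IBF25 had a mean of 3.04 over 9 ovarian markers, against 7.83 to 8.99 in the other 6 ovaries, although its INHBA, at 7.26, was the highest of the ovaries. The thyroid of the Youli male YLM20 had a mean of 8.0 over 9 adenohypophyseal markers, against a thyroid median of 2.32. Over the same markers the hypothalamus of YLM19 had a mean of 5.73, against a hypothalamus median of 2.38, with growth hormone (GH1) at 10.93. The backfat of the Large White female LWF06 had a mean of 4.33 over 6 measured of 7 duct epithelium markers, against a backfat median of 2.38 (EPCAM at 7.51). In bulk tissue fewer cells of a type and less RNA per cell cannot be told apart.

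In the 6 organs members ranged between background and abundant levels. Of the 52 members 21 (40.4%) had no organ mean of log2 4 or more and are called low in every organ, against 990 (14.6%) of the 6765 genes. These were 15 of 26 CYP genes, 2 of 10 ALDH genes, 2 of 4 AKR genes, 1 of 2 SULT genes and the single UGT gene, UGT2B31, a glucuronosyltransferase. None of the 6 GST genes, the 2 FMO genes or the single ADH gene was low in every organ. By the moderated F test of limma 47 of 52 members (90.4%) differed between the 6 organs at an adjusted p under 0.05, where 94.5% of all probesets did so, a similar share. Among the 31 members that were not low, the range between the highest and the lowest organ mean had a median of 2.85 log2, against 1.70 log2 for the 5775 genes that were not low. The organ with the highest mean was ovary for 7 of the 31 members (22.6%, against 13.7% of the 5775 genes) and backfat for 7 (22.6%, against 18.6%). It was testis for 6 (19.4%, against 20.5%) and thyroid for 5 (16.1%, against 15.5%). For 4 members it was adenohypophysis (12.9%, against 14.1%) and for 2 hypothalamus (6.45%, against 17.7%).

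**Figure D1:**
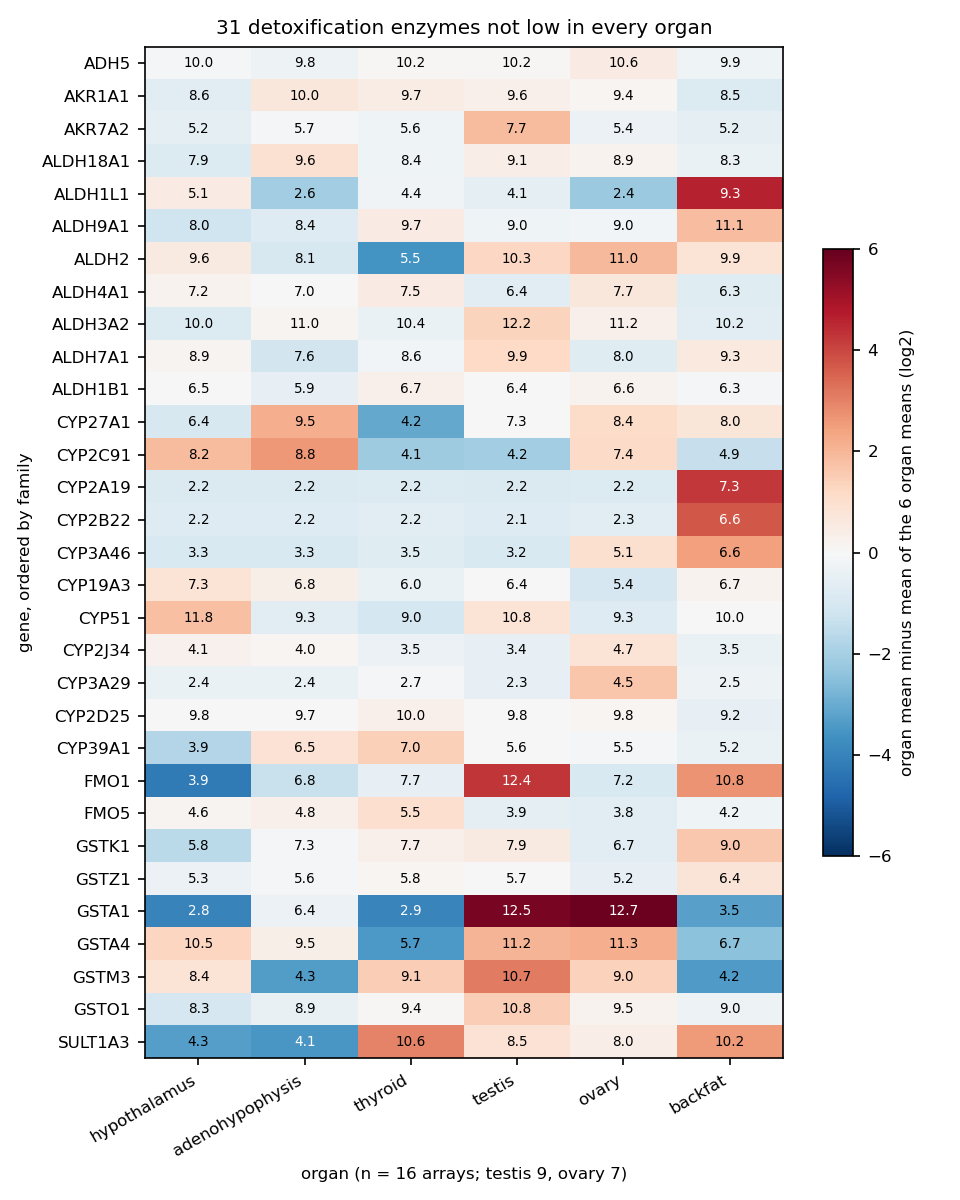
Organ means of the 31 members that were not low in every organ. Columns are the 6 organs and rows are members, the colour gives the organ mean minus the member's own mean in log2 units, and the printed numbers are organ means on the log2 scale. GSTA1 stood out in both gonads, ALDH1L1, CYP2A19 and CYP2B22 in backfat, and ADH5 and CYP2D25 were nearly flat.

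The widest ranges of organ means belonged to GSTA1 (9.91 log2), FMO1 (8.53), ALDH1L1 (6.86), GSTM3 (6.52) and SULT1A3 (6.48). The smallest belonged to ALDH1B1 (0.78), ADH5 (0.79), CYP2D25 (0.81), GSTZ1 (1.24) and CYP2J34 (1.30). ADH5, which oxidizes the glutathione adduct of formaldehyde, had organ medians between 9.80 and 10.67 and no array outside 9.38 to 11.19. CYP2D25, known in the pig as a vitamin D 25-hydroxylase, had medians between 9.20 and 10.01, and its other probeset was near background, with organ means of 2.6 to 3.17. AKR1A1, the brightest AKR gene and a general aldehyde reductase, had medians between 8.53 and 10.01. None of ADH5, CYP2D25 and AKR1A1 reached a difference of 1 log2 in any organ contrast.

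Several oxidizing enzymes had their highest organ mean in backfat. Some of them were above every array of the other organs, and the share of all probesets separated in this way was not taken. Of 52 members 8 (15.4%) were higher in backfat than in the mean of the other 5 organs, by limma with an adjusted p under 0.05 and a difference of at least 1 log2, where 8.96% of all probesets were. In addition 4 members (7.69%) were lower, where 10.4% of probesets were. With arrays centred on their medians the backfat contrast shifted by 0.16 log2 over all probesets. Then 11 members were higher and 4 lower, and 2511 of all probesets were higher and 2019 lower in place of 2150 and 2495. The genes that rose were ALDH1L1, CYP2A19, CYP2B22, FMO1, SULT1A3, CYP3A46, ALDH9A1 and GSTK1.

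ALDH1L1, the cytosolic formyltetrahydrofolate dehydrogenase, was at a lowest, median and highest value of 6.85, 9.37 and 10.27 in the 16 backfat arrays, against organ medians of 2.46 to 5.09 elsewhere. No other array exceeded 6.82, a testis. The difference was 5.54 (SE 0.20, limma adjusted p = 9.8e-39). The other ALDH1L1 probeset was near background in every organ, with organ means from 2.161 in ovary to 2.215 in backfat. CYP2A19, a porcine CYP2A enzyme that acts on skatole, was at 2.87, 7.55 and 9.52 in backfat, against 2.07 to 2.33 in all arrays of the other organs. The groups did not overlap, although the Duroc male DUM15 was close to background. The difference was 5.09 (SE 0.23, limma adjusted p = 1.2e-32). CYP2B22, of the phenobarbital-inducible CYP2B subfamily, was at 4.37, 6.90 and 8.39 in backfat, against 2.07 to 3.14 in all other arrays. These groups did not overlap either, and the difference was 4.45 (SE 0.17, limma adjusted p = 5.8e-36).

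CYP3A46, of the broad-range CYP3A subfamily, varied most among backfats, with 3.4, 6.76 and 10.52, against organ medians of 3.25 to 3.68 elsewhere. Ovary spread widely too, with DUF14 at 9.38, IBF22 at 7.19 and YLF21 at 5.56 and the other 4 at 3.30 to 3.68. All 4 Large White backfats were at 3.44 to 4.14, those of DUF14 and YLM19 were at 3.4 and 4.36, and the other 10 backfats were at 6.18 or more. The difference was 2.95 (SE 0.36, limma adjusted p = 3.7e-11). FMO1, which oxygenates soft nitrogen and sulfur atoms, was at 9.43, 10.82 and 11.61 in backfat, below testis at 10.81, 12.58 and 13.16 and mostly above the other organs, whose medians were 4.08 to 7.81 and whose highest array, an ovary, was at 10.14. The difference of backfat from the other organs was 3.24 (SE 0.23, limma adjusted p = 4.7e-21). ALDH9A1, which makes a carnitine precursor, was at 9.69, 11.13 and 11.49 in backfat, with a difference of 2.25 (SE 0.07). GSTK1, the kappa class transferase of mitochondria and peroxisomes, was at 7.78, 8.99 and 9.54 in backfat, with a difference of 1.92 (SE 0.10). SULT1A3, a phenol sulfotransferase that in humans prefers catecholamines, was at 7.62, 10.45 and 11.52 in backfat, near the thyroid, with a difference of 3.08 (SE 0.19). The members that fell were GSTM3, with a difference of -4.09 (SE 0.35), GSTA1 with -3.92 (SE 0.33), GSTA4 with -2.95 (SE 0.14) and CYP2C91 with -1.66 (SE 0.21).

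**Figure D2:**
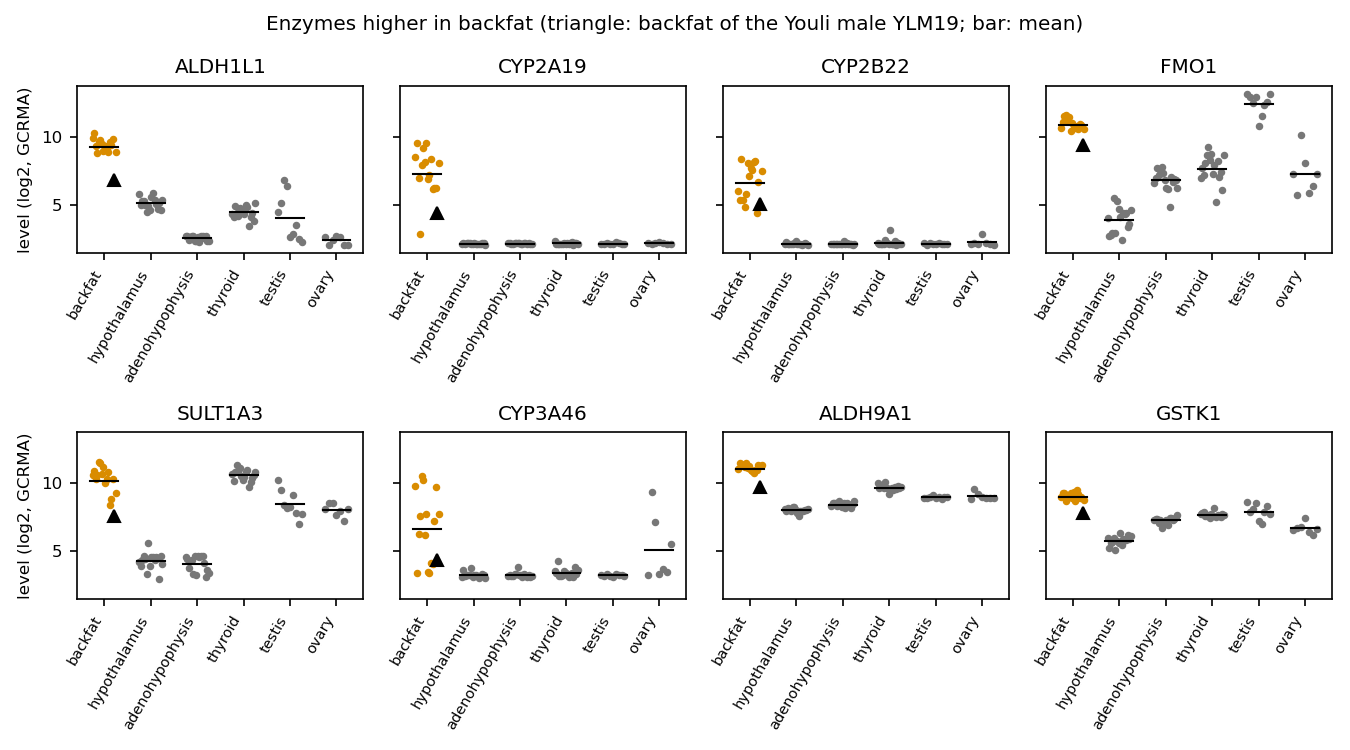
Array values of 8 members in backfat, drawn first, and in the other organs, on the log2 scale. Each point is 1 array, and the triangle is the backfat of YLM19. CYP2A19 and CYP2B22 did not overlap between backfat and the other organs, and CYP3A46 spread from background to log2 10.52 among backfats.

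The array of YLM19 moved with several of these values. Its backfat had ALDH1L1 at 6.85, where the other 15 backfats were at 8.84 or more, and ALDH9A1 at 9.69, where they were at 10.74 or more. It also had GSTM3 at 8.86, against at most 5.95 in the other backfats, and ALDH2 at 12.17, against at most 10.34. Adiponectin (ADIPOQ) was at 11.53 there and at 12.46 to 14.04 in the other backfats, and the fast muscle light chain MYLPF was at 14.80. The testis markers INSL3 and FATE1 were at 7.60 and 5.29 there, against backfat medians of 2.03 and 1.58, and over 7 measured of 8 testis markers it had the highest backfat mean, 3.59, against a median of 2.76. INSL3 was also at 7.21 in the backfat of the female LWF06. Without this array the difference was 5.68 for ALDH1L1, 5.27 for CYP2A19, 4.54 for CYP2B22 and -4.44 for GSTM3, and 8 members were still higher and 4 lower. Skeletal muscle markers were also raised in the backfats of DUM12 and DUF14, with list means of 10.60 and 10.17. Markers of other cell types moved with the organ as well. Over 3 of 3 endothelial markers the backfat arrays had a median of 10.60, against organ medians of 6.4 to 9.15, and over 3 measured of 4 fibroblast markers 10.11, against 5.90 to 9.11. Their part in the differences was not tested. Of 7 hepatocyte markers, 6 had a backfat mean under log2 4, and the highest backfat list mean was 5.60, in LWF05, whose CYP2A19 of 6.89 and ALDH1L1 were inside the range of the other backfats.

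Testis and ovary shared the highest levels of the alpha class glutathione transferases. In testis 10 members (19.2%) were higher than in the mean of the other organs and 3 (5.77%) lower, where 8.45% and 8.35% of probesets were. In ovary 8 (15.4%) were higher and 4 (7.69%) lower, where 8.15% and 6.30% of probesets were. With centred arrays the ovary contrast shifted by -0.14 log2 over all probesets. Then 7 members were higher and 6 lower, and 1686 of all probesets were higher and 1940 lower in place of 1956 and 1512. The members higher in both gonads numbered 4, namely GSTA1, GSTA4, GSTM3 and ALDH2, and the share of all probesets higher in both was not taken. Of these, GSTM3 was also called higher in thyroid and GSTA4 in hypothalamus.

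GSTA1, of the alpha class whose members in several mammals also isomerize steroids, was at 10.57, 12.66 and 13.93 in testis and at 9.27, 13.79 and 14.63 in ovary. It was at 2.53 to 3.54 in all thyroid and hypothalamus arrays. The adenohypophysis spread widely, at 2.90, 6.81 and 10.02, with the Large White female LWF05 highest and above the lowest ovary, and backfat had a median of 2.93 with IBF25 at 7.17 as its highest array. The differences from the other organs were 6.92 in testis (SE 0.42, limma adjusted p = 1.1e-24) and 6.98 in ovary (SE 0.46, limma adjusted p = 4.9e-22). The other 2 probesets assigned to GSTA1 were also highest in the gonads, with means of 13.06 and 11.66 in testis and 12.25 and 9.63 in ovary. They differed from each other in the adenohypophysis, with means of 4.96 and 2.25, and from the brightest one in backfat, where LWF06 was highest at 9.29 and 9.70 and IBF25 was at 3.76 and 2.40. Near-identical alpha class genes may share these probes. GSTA4, which conjugates the lipid peroxidation product hydroxynonenal, was at 10.72, 11.33 and 11.54 in testis and at 8.65, 11.75 and 12.17 in ovary, with differences of 2.43 (SE 0.17) and 2.65 (SE 0.19). The gonads overlapped with hypothalamus, at 10.06 to 11.70, and were above every thyroid, at 4.70 to 6.91. The other GSTA4 probeset was at background in every organ, with organ means from 1.626 in ovary to 1.659 in backfat.

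Further members were higher in one gonad or in both. FMO1 was higher in testis by a difference of 5.14 (SE 0.29, limma adjusted p = 6.5e-26). GSTM3, a mu class transferase, was at 9.07, 10.33 and 13.07 in testis, with 3 testes above 12, those of LWM02, YLM20 and YLM19. Its difference was 3.79 (SE 0.44, limma adjusted p = 7.4e-12). AKR7A2, which reduces succinic semialdehyde and aflatoxin dialdehyde, GSTO1, ALDH3A2, ALDH7A1, ALDH2 and SULT1A3 were also higher in testis, by 1.10 to 2.22 log2. In ovary ALDH2, the mitochondrial acetaldehyde dehydrogenase, was at 10.46, 11.20 and 11.59, with a difference of 2.34 (SE 0.22, limma adjusted p = 2.9e-15). CYP3A29 was at 2.31, 4.45 and 6.24 in ovary, against organ medians of 2.30 to 2.44 elsewhere, with a difference of 2.01 (SE 0.21, limma adjusted p = 6.1e-13). Of the ovaries 6 were at 4.11 or more and IBF25 was at background, while single arrays of hypothalamus and thyroid reached 4.69 and 4.40.

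Among the lower members, CYP2C91 had a difference of -2.52 in testis (SE 0.26) and ALDH1L1 one of -2.75 in ovary (SE 0.28). CYP3A46 had a difference of -1.13 in testis (limma adjusted p = 0.0322), and this call was lost with the animal as replicate block, where the difference was -1.05 (limma adjusted p = 0.0838). CYP3A46 and CYP2A19 were at background in testis, and CYP2A19 also in ovary, where it was called lower. These contrasts rest on the organs in which the 2 genes were high. The IBF25 ovary, whose mean of ovarian markers was low, also had the lowest GSTA4, at 8.65 against 11.27 or more in the other ovaries, and the highest CYP2C91, at 9.86. Over 6 measured of 7 duct epithelium markers its mean was 7.93, against 3.42 to 5.96 in the other ovaries, and the part of these cells in its values was not tested. Without this ovary the differences were 2.41 for CYP3A29 and 3.04 for GSTA4, and 7 members were higher in ovary.

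The direct comparison of the gonads asked which of these enzymes differ between testis and ovary, where sex and organ cannot be told apart. By limma with breed as covariate, 10 members (19.2%) were higher in testis than in ovary and 6 (11.5%) lower at an adjusted p under 0.05, where 15.0% and 13.2% of probesets were. Over all probesets these were 3608 and 3173. With centred arrays they were 5356 and 2644, and 14 and 6 among the members, as centring shifted the contrast by 0.10 log2 over all probesets, and no named member changed direction. Of all 52 members 5 had no overlap between testes and ovaries, where 9.16% of all probesets had none, a similar share.

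FMO1 was at 10.81, 12.58 and 13.16 in testis and at 5.71, 7.24 and 10.14 in ovary. Every testis was above every ovary, and the difference of 5.12 was the largest among members (SE 0.44, limma adjusted p = 4.4e-06). AKR7A2 was at 6.85, 8.02 and 8.49 in testis and at 3.92, 5.72 and 6.52 in ovary. The organs did not overlap, with a difference of 2.14 (SE 0.27, limma adjusted p = 9.0e-05). ALDH7A1, which acts in lysine breakdown, was at 9.30, 9.999 and 10.38 in testis and at 7.64, 7.84 and 8.53 in ovary, again without overlap, with a difference of 1.97 (SE 0.18, limma adjusted p = 6.7e-06). ALDH1L1 was higher by 1.95 (SE 0.47, limma adjusted p = 0.00735) but overlapped, at 2.29, 3.52 and 6.82 in testis and 2.08, 2.46 and 2.70 in ovary.

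CYP51, the lanosterol demethylase of cholesterol synthesis, was higher in testis by 1.63 (SE 0.31), GSTO1, the omega class transferase, by 1.34 (SE 0.29), GSTK1 by 1.22 (SE 0.16) and ALDH3A2, the fatty aldehyde dehydrogenase, by 1.05 (SE 0.23). The ALDH3A2 call was lost when the gene's probesets were averaged, with a difference of 0.58 (limma adjusted p = 0.0568). CYP19A3 and GSTZ1, the zeta class enzyme of tyrosine breakdown, were the remaining members that rose, by 0.93 and 0.53.

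In the other direction CYP2C91 was at 3.19, 3.90 and 6.11 in testis and at 5.46, 7.14 and 9.86 in ovary, a difference of -3.39 (SE 0.61, limma adjusted p = 0.00124). CYP3A29 was at 2.22 to 2.53 in testis, all at background, and reached 6.24 in ovary, with a difference of -2.14 (SE 0.44, limma adjusted p = 0.00282), or -2.54 without IBF25. ALDH4A1, which acts in proline breakdown, was at 5.27, 6.24 and 7.32 in testis and at 7.07, 7.76 and 8.25 in ovary. Its ranges overlapped slightly, with a difference of -1.35 (SE 0.16, limma adjusted p = 5.8e-05). CYP2J34, of the arachidonic acid epoxygenase subfamily, had a difference of -1.24 (SE 0.26), CYP27A1, the mitochondrial sterol 27-hydroxylase, of -1.12 (SE 0.20) and ALDH2 of -0.73 (SE 0.20). The ALDH2 call was lost without YLF21, with a difference of -0.70 (limma adjusted p = 0.0524). GSTA1 and GSTA4 did not pass the test, with differences of 0.22 (SE 0.63) and -0.15 (SE 0.41).

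**Figure D3:**
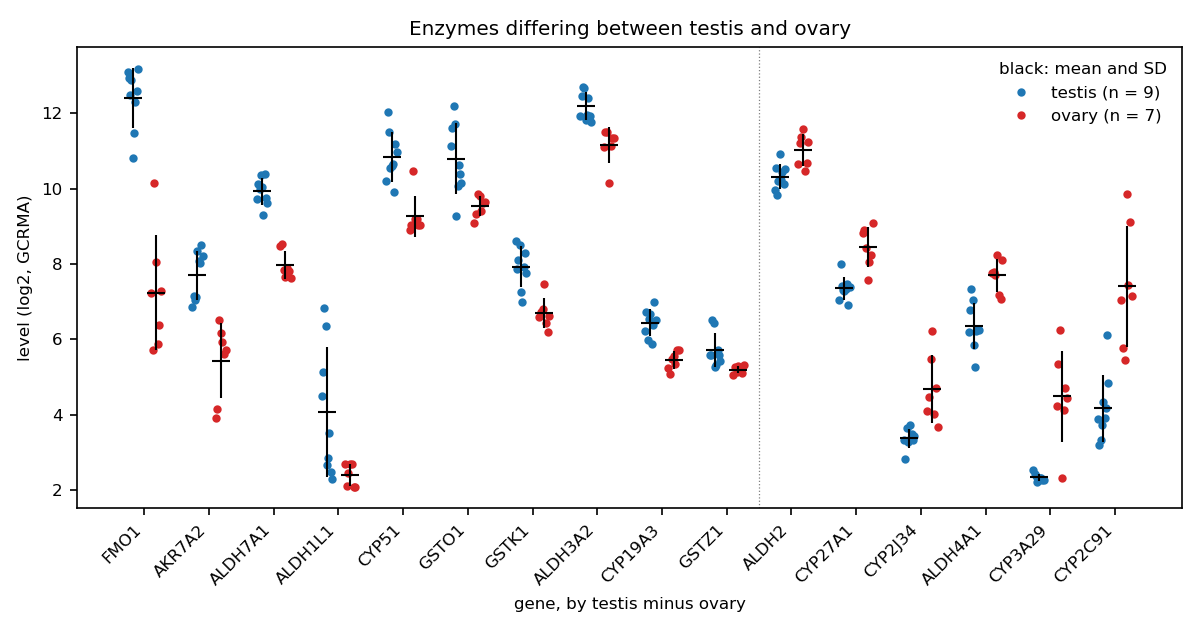
Array values of the 16 members called between the gonads, with testis left of ovary, on the log2 scale. Each point is 1 gonad, and panels run from the members highest in testis to those highest in ovary. The testes and ovaries of FMO1, AKR7A2 and ALDH7A1 did not overlap, whereas those of ALDH1L1 and CYP2C91 did.

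Whether the sex difference of the gonads exceeded that of the same animals elsewhere was tested on each animal's gonad value minus the mean of its other 4 tissues. This difference passed for 16 members (30.8%), where 25.3% of probesets passed. Of the probesets that passed, 3260 had a positive and 2812 a negative value. With centred arrays these were 4462 and 2331, and the members called numbered 13 and 5 in place of 10 and 6. Of these 16 members 15 were also called between testis and ovary, CYP2B22 being added and ALDH2 missing.

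The hypothalamus had the most members called lower of the 6 organs. Of 52 members 4 (7.69%) were higher there and 12 (23.1%) lower, where 11.8% and 12.2% of probesets were. CYP51 was at 11.23, 11.85 and 12.47 in hypothalamus, and overlapped only with testis, at 9.90 to 12.04. No array of the other 4 organs exceeded 10.63. Its difference was 2.14 (SE 0.12, limma adjusted p = 3.4e-27). CYP2C91 was at 7.11, 8.14 and 9.09 in hypothalamus, within the range of adenohypophysis and ovary, with a difference of 2.27 (SE 0.21, limma adjusted p = 3.3e-16).

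ALDH5A1, the succinic semialdehyde dehydrogenase of GABA breakdown, was the only one of the 21 low members with a higher call in any organ. It was at 2.28, 3.44 and 5.00 in hypothalamus, against organ medians of 1.88 to 2.53 elsewhere, with a difference of 1.25 (SE 0.14, limma adjusted p = 5.4e-13). Its lower hypothalamic arrays overlapped with those of other organs. GSTA4 was the last of the 4, with a difference of 1.54 (SE 0.14), or 0.77 when the probesets of the gene were averaged, which is under the size required. FMO1, at 2.42, 4.08 and 5.47, had its lowest organ level here and a difference of -5.11 (SE 0.23, limma adjusted p = 2.4e-32). GSTA1 was lower by a difference of -4.81 (SE 0.33), SULT1A3 by -3.96 (SE 0.19) and CYP39A1 by -2.11 (SE 0.14). The remaining lower members, GSTK1, ALDH9A1, GSTO1, CYP27A1, CYP3A46, CYP2A19, ALDH18A1 and ALDH3A2, had smaller differences, at most 1.91 log2 below the mean of the other organs. CYP3A46 and CYP2A19 were near background in hypothalamus, with means of 3.27 and 2.17, so that their calls rest on the organs in which they were high. Without the YLM19 backfat 6 members were higher in hypothalamus, and the share over all probesets was not taken. With that array CYP19A3 and GSTM3 were just under the size required, with differences of 0.99 and 0.98.

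In the adenohypophysis the cytochromes CYP2C91 and CYP27A1 led the members that rose. There 4 members (7.69%) were higher and 8 (15.4%) lower, where 8.60% and 9.15% of probesets were. CYP27A1 was at 8.83, 9.60 and 10.14 in adenohypophysis, overlapping with ovary, at 7.58 to 9.10, and backfat, at 5.59 to 9.57. It lay above all arrays of hypothalamus, thyroid and testis, with a difference of 2.64 (SE 0.22, limma adjusted p = 8.3e-18). CYP2C91 was at 8.12, 8.90 and 9.53, its highest organ median, with a difference of 3.09 (SE 0.21, limma adjusted p = 1.9e-22). ALDH18A1, which makes the proline precursor pyrroline carboxylate, was at 9.43 to 9.93, with a difference of 1.10 (SE 0.07), and CYP39A1, an oxysterol 7-alpha-hydroxylase, was higher by 1.02 (SE 0.14). SULT1A3 was at 3.13, 4.34 and 4.66, below every array of thyroid, gonads and backfat, with a difference of -4.21 (SE 0.19, limma adjusted p = 2.7e-32). GSTM3 was at 1.96, 4.06 and 6.79, with a difference of -4.02 (SE 0.35, limma adjusted p = 3.7e-17), and ALDH1L1, FMO1, ALDH7A1, ALDH2, CYP3A46 and CYP2A19 were lower by differences between -2.49 and -1.02. CYP3A46 and CYP2A19 were near background in adenohypophysis too, with means of 3.27 and 2.17, so that their calls rest on other organs.

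The thyroid gland was marked by SULT1A3, whose human counterpart sulfates phenols, and by low aldehyde dehydrogenase ALDH2. Of 52 members 4 (7.69%) were higher and 7 (13.5%) lower, where 7.89% and 7.96% of probesets were. SULT1A3 was at 9.69, 10.64 and 11.35 in thyroid, well above hypothalamus and adenohypophysis and overlapping with backfat and with testis, whose highest array was at 10.22. The difference was 3.57 (SE 0.19, limma adjusted p = 4.9e-28). GSTM3 was higher by 1.75 (SE 0.35), CYP39A1 by 1.73 (SE 0.14) and FMO5, a monooxygenase with Baeyer-Villiger activity, by 1.22 (SE 0.14). ALDH2 was at 4.50, 5.30 and 6.63 in thyroid, against 7.73 or more in every other array. The groups did not overlap, with a difference of -4.29 (SE 0.15, limma adjusted p = 4.1e-38). GSTA1 was lower by a difference of -4.73 (SE 0.33), GSTA4 by -4.11 (SE 0.14), CYP27A1 by -3.71 (SE 0.22), CYP2C91 by -2.55 (SE 0.21), CYP51 by -1.28 (SE 0.12) and CYP2A19, at background, by -1.01 (SE 0.23).

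CYP27A1 was at 2.83, 4.28 and 6.83 in thyroid, and its 2 highest arrays, DUM12 at 6.83 and YLM20 at 5.84, carried signs of other tissue. Over 4 measured of 6 adipocyte markers the thyroid of DUM12 had the highest mean of the thyroids, 9.32, where the thyroids ranged down to 4.32, and that of YLM20 had 8.20 beside its adenohypophyseal markers. Their part in the CYP27A1 values was not tested.

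CYP19A3, a copy of the aromatase that makes estrogens, gave different organ patterns by probeset. Its brightest probeset by mean over all arrays had organ means between 5.45 in ovary and 7.27 in hypothalamus and was lower in ovary by a difference of -1.16 (SE 0.16, limma adjusted p = 1.6e-09). A second probeset assigned to the gene had a mean of 12.32 ± 1.5 in testis and 9.49 ± 3.15 in ovary (SD, n = 9 and 7), 5.05 in hypothalamus and 2.56 to 2.94 in the other organs. Another had means of 11.01 ± 2.05 in testis and 7.77 ± 3.25 in ovary, and 2.52 to 3.16 elsewhere. When the probesets of the gene were averaged the ovary contrast reversed, to 0.90. The direction for CYP19A3 in ovary therefore depends on the probeset taken, and the near-identical aromatase copies of the pig may share probes.

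**Figure D4:**
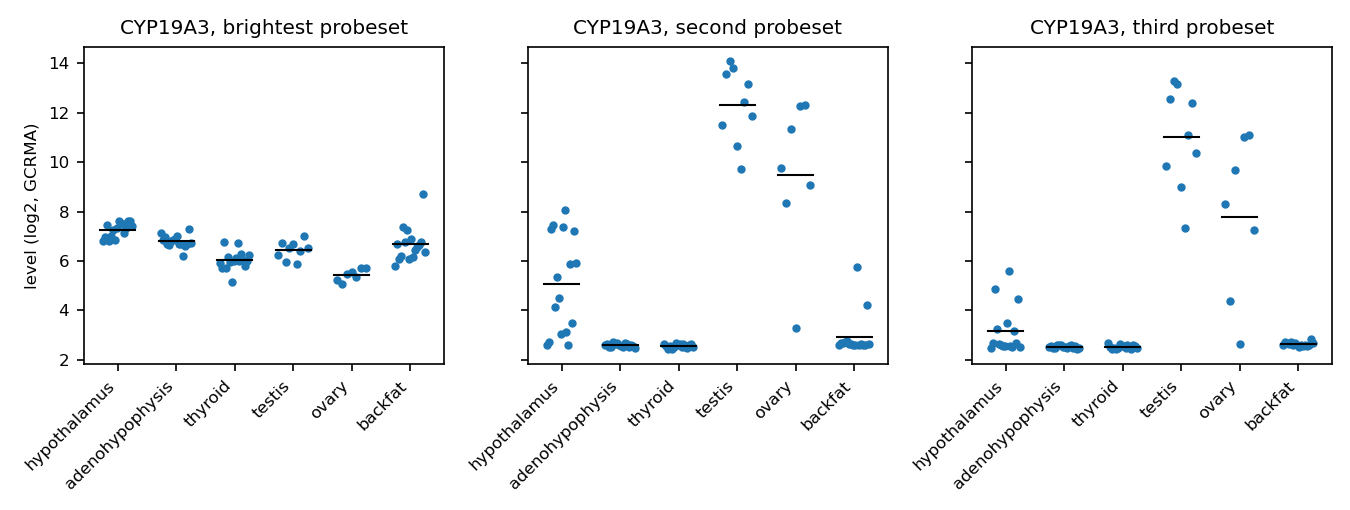
Array values of the 3 brightest probesets assigned to CYP19A3 in the 6 organs, on the log2 scale. Each point is 1 array. The probeset used as brightest had organ means between 5.45 in ovary and 7.27 in hypothalamus, and the other 2 were highest in testis.

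Outside the gonads no member passed the limma test of males against females. Of the 52 members 0 were called in hypothalamus (0.0667% of probesets), adenohypophysis (0.500%), thyroid (0.0792%) or backfat (0.05%). At an unadjusted p under 0.05 there were 1, 3, 4 and 2 members, and 412, 1777, 913 and 538 of 23999 probesets. With a common residual variance 0, 2, 0 and 3 members were called, and the share over all probesets was not taken. The widest of these differences was that of CYP2B22 in backfat, at 5.05, 7.52 and 8.39 in 9 males and at 4.37, 5.81 and 7.68 in 7 females. The sexes overlapped, with a difference of 1.47 (SE 0.49, limma adjusted p = 0.999). CYP27A1 in backfat had a difference of 0.84 (SE 0.35, limma adjusted p = 0.999). In hypothalamus AKR7A2 was at 4.83, 5.52 and 5.99 in males and at 3.98, 4.86 and 5.77 in females (difference 0.53, limma adjusted p = 0.998), and ALDH9A1 differed by 0.12. In adenohypophysis the values were -0.13 for CYP2D25 and -0.28 for ALDH3A2, and in thyroid -0.27 for GSTZ1 and -0.43 for SULT1A3. With the thyroid arrays assigned by the label fields in place of the titles, those of GSTZ1 and SULT1A3 were 0.10 and 0.04.

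Among breeds a single member was called, AKR7A2, which was lowest in Duroc pigs. The moderated F test of limma over 4 breeds called it in backfat (1 of 52, 1.92%, where 0.817% of probesets were called, adjusted p = 0.0385) and on the mean of the 4 non-gonadal tissues (1 of 52, where 1.18% of probesets were called, adjusted p = 0.0215). In backfat the 4 Duroc pigs were at 4.04, 4.35, 4.36 and 4.39, against 4.84, 5.56 and 6.04 as lowest, median and highest of the other 12 pigs. Duroc did not overlap with the other breeds, and its difference from their mean was -1.27 (SE 0.19). In adenohypophysis the Duroc pigs were at 4.54, 4.84, 4.98 and 5.42, against 5.55 to 6.27 in the others, again without overlap, with a difference of -0.98 (SE 0.16, limma adjusted p for breed = 0.0711). In ovary the 2 Duroc arrays were at 3.92 and 4.15, against 5.62 to 6.52 in the other 5, with a difference of -1.91 (SE 0.17, limma adjusted p for breed = 0.44).

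In hypothalamus and thyroid Duroc pigs overlapped with the others. They were at 3.98, 4.24, 4.83 and 5.16 in hypothalamus, against 4.71 to 5.99, and at 4.37, 4.52, 4.61 and 5.11 in thyroid, against 5.00 to 6.92. The differences of AKR7A2 were -0.88 (SE 0.21) and -1.20 (SE 0.25), with breed adjusted p of 0.258 and 0.09 from limma. The thyroid values rest on the titles. With thyroid arrays assigned by the label fields, AKR7A2 was not called and its thyroid adjusted p was the highest of all settings. In testis the 2 Duroc arrays, at 6.85 and 7.16, and the 2 Iberian arrays, at 7.04 and 7.11, lay together, below the Large White testes at 8.09 and 8.34 and the Youli testes at 8.02, 8.20 and 8.49. The testis difference for Duroc was -0.84 (SE 0.15, limma adjusted p for breed = 0.105). The backfat call was lost when any 1 of 12 of the 16 animals was left out, with adjusted p between 0.0241 without YLM20 and 0.0921 without DUM15, and was kept without IBM24, LWF06, YLM19 or YLM20. The call on 4 tissues was lost without DUF13, DUF14 or DUM15 (highest adjusted p = 0.0719) and kept in the other 13 runs of limma.

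**Figure D5:**
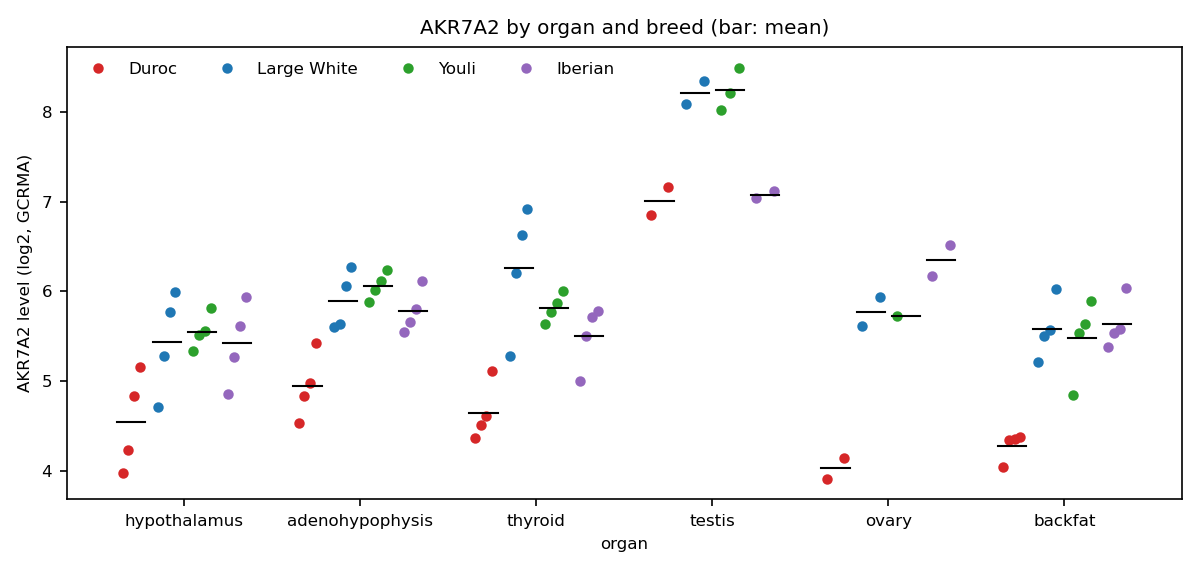
AKR7A2 in each organ by breed, in the order Duroc, Large White, Youli and Iberian, on the log2 scale. Each point is 1 array. The Duroc arrays were below all others in adenohypophysis, ovary and backfat, and in testis they lay beside the Iberian arrays.

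No other member passed the breed test in the tissues one by one. By limma 0 of 52 were called in hypothalamus (0.171% of probesets), adenohypophysis (0.300%), thyroid (0.575%), testis (0% of probesets) and ovary (0.00417%). At an unadjusted p under 0.05 there were 7, 11, 11, 10 and 6 members in those 5 organs, 11 in backfat and 16 on the mean of 4 tissues. Over all 23999 probesets these counts were 2751, 3917, 3438, 3352 and 1715, with 5064 in backfat and 4400 on 4 tissues. With a common residual variance 4, 8, 10, 10 and 4 members were called in those 5 organs, and the share over all probesets was not taken. In testis GSTZ1 was at 6.43 and 6.5 in Iberian pigs, against 5.25 to 5.71 in the other 7 testes (limma adjusted p = 0.103). ALDH1L1 was at 6.36 and 6.82 in Iberian testes and at 4.49 and 5.14 in Duroc testes, against 2.29 to 3.52 in Large White and Youli testes (limma adjusted p = 0.103). The Iberian testes were above all others for both genes, but neither gene passed the test.

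In thyroid ALDH5A1 was at 3.72 and 3.68 in the Duroc females, against 1.94 to 2.84 in the other 14 pigs (limma adjusted p = 0.0662). These are Duroc females by title, whereas the label fields of the same arrays name a Duroc male and an Iberian female. In ovary ALDH7A1 was at 8.48 and 8.53 in Duroc pigs, against 7.64 to 7.88 in the other 5 (limma adjusted p = 0.517). In adenohypophysis AKR1A1 was at 10.13 to 10.28 in Duroc pigs and at 9.52 to 9.92 in Large White pigs (limma adjusted p = 0.124). In hypothalamus the breed means of ALDH9A1 spanned 0.31 (limma adjusted p = 0.268). CYP27A1 in backfat spanned 2.10 between breed means (limma adjusted p = 0.0675), and was named after its values were seen.

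How far an animal kept its rank from tissue to tissue was described by the correlation across the 16 animals between pairs of the 4 non-gonadal tissues. AKR7A2 had the highest mean r of the 31 members over the 6 pairs, 0.74, followed by ADH5 (0.60), CYP39A1 (0.56), GSTA4 (0.56), GSTM3 (0.54) and GSTZ1 (0.51). The median of the members was 0.22, against 0.20 for 5775 genes. The points share the breed of the animal and the joint normalization of the arrays.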

How the data were processed

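RNA of 5 tissues of 16 pigs had been hybridized to GeneChip Porcine arrays and scanned with GCOS. The deposited log2 values come from GCRMA, run by the authors jointly on all 80 arrays, and were not transformed again. GCRMA corrects background by probe sequence and applies quantile normalization, so that dim probesets collapse to a floor and organs are forced to a common distribution. The version of GCRMA is not given in the sources used here. Of 24123 probesets 124 controls were left out, and 23999 were tested.

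Symbols came from the platform annotation (10069 probesets with 1 symbol, 198 with several, 13732 with none), and 51 of 52 members matched the RefSeq gene table. The 52 members had 78 probesets, and 16 members had more than 1. Members, gene lists and tests were chosen with earlier results of these data known.

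Arrays were grouped by their titles, which name tissue, breed, sex and animal. Same-numbered arrays come from 1 animal, and their deviations correlated between 0.118 and 0.416 on average. Each pig gave 1 array per tissue, so that p-values of the gonad, sex and breed comparisons measure the spread between animals. The main organ fit of 80 arrays had no animal term, so that its p-values treat arrays of 1 pig as independent. They rest on the spread of arrays pooled over the organs, and the animal was taken as block only as an alternative. In all tests the number of arrays limits the precision. With R 4.3.3 and limma 3.58.1 (lmFit, eBayes, Benjamini-Hochberg over all probesets), 1 fit of 80 arrays with breed as covariate gave the F test over organs and each organ minus the mean of the other 5, called at an adjusted p under 0.05 and a size of at least 1 log2. Gonads, and sex in each other tissue, were compared with breed as covariate, and breeds by the moderated F test with sex as covariate, or within testes and ovaries without covariate. All tests were two-sided or F tests. The scripts were tested on simulated data with known differences.

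Named members were, per organ, the 4 largest rises and 2 largest falls called, between the gonads the 8 largest in each direction, for sex and breed all called or else the 2 with the smallest p, the brightest of each family, and the 5 with the largest and 5 with the smallest organ range. Others named were chosen after their values were seen. Alternatives left out dim probesets, centred arrays, averaged a gene's probesets, took the animal as block, left out each animal, used a common residual variance, or assigned thyroid arrays by their fields. Leaving out the YLM19 backfat was added after seeing the data. Marker lists of 17 cell types and tissues were fixed for description. No sequence was printed.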

Additional observations from a re-analysis of the deposited data

Results flagged for a closer look

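Single arrays far from the rest of their group were looked for in 56 groups of 4 to 10 arrays of named members with Dixon's test at 95%, and 4 were found, where chance alone gives about 1 in 20 groups. In ovary ALDH3A2 was at 10.157 in IBF25, against 11.10 to 11.51 in the other ovaries, the same array whose mean of ovarian markers was low. In ovary CYP51 was at 10.469 in IBF22, against 8.89 to 9.20. The steroidogenic markers STAR and HSD3B1 were also highest in that ovary, at 13.36 and 11.70, against ovary medians of 3.52 and 6.70, and their part in the value was not tested. In the backfat of Duroc pigs AKR7A2 was at 4.043 in DUM15, against 4.35 to 4.39. In the thyroid of Youli pigs ALDH5A1 was at 1.94 in YLM19, against 2.25 to 2.31, all at background.

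No member was called for sex outside the gonads, and 15 of the members below were also called between testis and ovary. By limma the sex difference in gonads differed from that in each animal's other 4 tissues for 16 members (30.8%, against 25.3% of probesets). It was larger towards males in gonads for FMO1 (5.008, adjusted p = 3.3e-06), ALDH1L1 (2.234), AKR7A2 (1.979), ALDH7A1 (1.827, adjusted p = 1.5e-06), CYP51 (1.712), GSTO1 (1.323), ALDH3A2 (1.256), GSTK1 (1.202), CYP19A3 (1.021) and GSTZ1 (0.68). It ran towards females in gonads for CYP2C91 (-3.305), CYP3A29 (-2.169), CYP27A1 (-1.461), CYP2J34 (-1.313), ALDH4A1 (-1.153) and CYP2B22 (-0.518). CYP2B22 was at background in both gonads, at 2.10 to 2.19 in testis and 2.07 to 2.88 in ovary, so that its value comes from the other tissues, where it was above background in backfat.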

How the results depend on the processing

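Over the alternatives of the named members other than leaving out each animal, 342 values kept their direction and their side of the threshold, 8 newly passed, 3 no longer passed and 3 reversed. Leaving out each animal, which was done for the comparisons of gonads, sexes and breeds, kept 522 values, with 4 newly passed and 16 no longer passed, of which 15 were AKR7A2 and 1 was ALDH2 between the gonads. The reversed values were CYP19A3 in ovary, 0.895 with the gene's probesets averaged, and the sex differences of GSTZ1 (0.0964) and SULT1A3 (0.0419) in thyroid assigned by the fields. Without dim probesets 31 members differed between organs in place of 47, as the low members were not tested. With the animal as replicate block 46 did, and besides CYP3A46 in testis (-1.05) the block changed no call of a named member. A common residual variance called 2 members for sex in adenohypophysis and 3 in backfat, and for breed 4 in hypothalamus, 8 in adenohypophysis, 10 in thyroid, 10 in backfat, 10 in testis, 4 in ovary and 13 on 4 tissues. For that setting the share over all probesets was not taken. Without dim probesets 2 were called for breed in backfat (AKR7A2, CYP27A1), and with the mean of all 5 tissues 2 in place of 1 (AKR7A2, GSTA1). The causes of these changes were not tested. Leaving out each animal gave 0 to 1 members for breed in adenohypophysis, 0 to 2 in thyroid, 0 to 1 in backfat, 0 to 1 in ovary and 0 to 3 on 4 tissues. Ovary could not be run without YLF21, the only Youli ovary. Differences against values at the floor depend on where that floor lies.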

Other observations

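Other genes of the same metabolism, 49 measured of a list of 66, were described beside the members. The list held regulators and efflux transporters as well as enzymes. By limma, 12 were higher and 8 lower in backfat (8.96% and 10.4% of all probesets). In testis 13 were higher and 3 lower (8.45% and 8.35% of probesets), and in ovary 5 and 5 (8.15% and 6.30%). In thyroid the counts were 5 and 8 (7.89% and 7.96%), in adenohypophysis 4 and 10 (8.60% and 9.15%) and in hypothalamus 2 and 14 (11.8% and 12.2%). Between the gonads 15 were higher and 4 lower in testis than in ovary (15.0% and 13.2%). The genes named here were chosen after their values were seen. CBR1, a carbonyl reductase, was at 13.37 to 14.30 in testis and at 2.28 to 2.42 in ovary, with a difference of 11.58 (SE 0.14, limma adjusted p = 6.4e-14). CYB5A, the cytochrome b5 that passes electrons to cytochromes P450, was at 14.53 ± 0.24 in testis and at 11.78 ± 0.60 in ovary (SD, n = 9 and 7), without overlap. PON3, a lactonase, was at 5.42 to 12.18 in backfat, and CES1, a carboxylesterase, at 6.87 to 10.75, with differences from the other organs of 7.12 (SE 0.35) and 6.56 (SE 0.36). Single ovaries reached 10.02 for PON3 and 10.50 for CES1. MAOB, which oxidizes amines, was highest in hypothalamus, at 8.41 to 10.22, and at 2.20 to 3.41 in backfat. PAPSS2, which makes the sulfate donor of sulfotransferases, was at 9.93 to 12.47 in testis and 9.39 to 11.04 in adenohypophysis.

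Between breeds PON2 passed the limma test in adenohypophysis (1 of 49, where 0.300% of probesets did), with breed means spanning 0.37 (adjusted p = 0.0217). GPX1, a glutathione peroxidase, passed it in thyroid (1 of 49, 0.575% of probesets), spanning 2.14 (limma adjusted p = 0.0396). On the mean of 4 tissues GPX1 passed too (1 of 49, 1.18% of probesets), spanning 2.37 (limma adjusted p = 0.0492). The thyroid assignment rests on the titles, and leaving out each animal was not done for these genes.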
